A study of Mus musculus with 8 samples.

Results

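Lysosomal hydrolases and membrane proteins were followed as a set of 28 genes in peritoneal macrophages of wild-type (wt) and Card9-/- mice. The genes were chosen by name, and all 28 were found among the 18605 genes tested, on 58 array probes of which 51 passed the filter on dim signal. The data were 8 one-colour arrays, 4 from each genotype. All mice had been given 1 ml of 3% thioglycolate, a broth that draws cells into the peritoneal cavity, and cells were taken on day 4, cleared of red cells and kept if they adhered within 3 h. Every animal, wt or Card9-/-, had also received zymosan, a yeast cell wall preparation, intraperitoneally (500 mg/kg, 4 h). Cells that received no zymosan were not analysed here. Card9 is the adaptor that links receptors for fungal cell walls to NF-kB. Which part of the gene is deleted, and the strain, age and sex of the mice, are not given in the sources used here. Pellets of 4 or 5 mice were collected per group, per the labels, which do not say whether an array holds 1 mouse or a pool. The spread behind each p-value is that of these samples alone and may be technical.

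The lysosome is the acidic compartment in which macrophages break down ingested particles and worn-out cell parts. Soluble hydrolases cut sugars, lipids and proteins there, membrane proteins line the compartment and move its products out, and small cofactors present lipids to the enzymes. Many of these genes share a promoter element, the CLEAR motif, through which the transcription factor Tfeb and its relatives Tfe3 and Mitf are known to raise their expression together. Its core is CACGTG.

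Promoter letters were read from RefSeq (GRCm38.p6), in a window from 250 bases before to 50 bases after each gene's start. Of the 28 genes 25 had a window, and Galns, Npc1 and Asah1 had none. CACGTG was present in 7 of 25 (28%), namely Cln3, Gaa, Gla, Glb1, Lamp1, Lgmn and Mcoln1, against 8.09% of the windows of 27025 genes. The longer TCACGTGA, which contains CACGTG, was in 3 of 25 (12%), Cln3, Gla and Mcoln1, against 1.13% of all genes. The full CLEAR palindrome, which contains both, was in Cln3 alone (4%, against 0.37%). All 3 motifs are palindromes, so both strands are read at once. The stretches of 4 of these promoters are shown because they hold more than 1 copy each, with CACGTG in capitals, 5′ to 3′ on the gene's strand.
Lamp1: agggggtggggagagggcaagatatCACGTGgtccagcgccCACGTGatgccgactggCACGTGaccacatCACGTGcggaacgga
Mcoln1: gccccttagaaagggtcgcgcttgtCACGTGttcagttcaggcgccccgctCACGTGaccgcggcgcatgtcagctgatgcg
Cln3: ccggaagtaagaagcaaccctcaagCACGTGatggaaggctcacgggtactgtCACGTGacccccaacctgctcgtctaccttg
Gla: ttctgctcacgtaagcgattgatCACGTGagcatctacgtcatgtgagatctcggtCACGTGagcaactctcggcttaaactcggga
The Lamp1 stretch (chr8:13159075-13159160, plus strand) holds 4 copies, the first beginning 61 and the last 15 bases before the gene's start. Those of Mcoln1 (chr8:3500423-3500504, plus strand) begin 71 and 45 bases before it. In Cln3 (chr7:126583327-126583410, minus strand) the distances are 149 and 121 bases, and in Gla (chrX:134601169-134601255, minus strand) 227 and 194 bases. A match of letters is a description, and binding was not measured.

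Levels below are log2 processed signals minus the 75th percentile of the same array, so that 0 is that percentile and a step of 1 is a doubling. They compare 1 probe between arrays and cannot be set against those of another probe. On each array 59305 spots held no control probe, and 47.8% to 56.5% of these were well above background, and the number of arrays limits the precision. The arrays were not alike within the wt group. The libraries labelled wt replicates 1 and 2 were the closest pair of all (correlation 0.985 over the genes tested), and each lay closer to Card9-/- replicates 2 and 3 (0.920 to 0.963) than to wt replicates 3 and 4 (0.822 to 0.895). The labels call these 2 separate samples without saying from which mice their RNA came, and the wt SDs below count them as 2 samples. The level of Card9 itself, which checks the labels, was -6.21, -3.66, 1.48 and -0.67 in the libraries labelled wt replicates 1 to 4, against -5.93, -5.48, -4.77 and -5.43 in the 4 Card9-/- ones. Its probe was well above background on 3 wt and 0 Card9-/- arrays. A second Card9 probe, left out by the filter, was so on 2 wt and 0 Card9-/- arrays. By the Card9 reading alone the library labelled wt replicate 1 goes against its label, and the reason was not tested. The difference of -3.14 did not pass the test (limma adjusted p = 0.688, exact permutation p = 0.143 over 70 permutations, which cannot give less than 0.0286). Only 5 genes passed, and none of the 28 was among them. These were Eif2s3y, Ddx3y, Uty and a transcript known by a clone name, all higher in Card9-/-, and XIST, lower, and they were named after their values were seen. Sex and genotype therefore cannot be told apart, and among the 28 genes Gla and Lamp2 lie on the X chromosome. By XIST the library labelled wt replicate 1 (4.68) went with the other wt arrays (2.67 to 4.89). The Card9-/- arrays read XIST at -5.84 to -3.66.

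As a group, the lysosomal genes did not separate the genotypes. Their mean was lower in Card9-/- for 27 of 28, but 0 of 28 passed the test after adjustment over all genes, and 0 of 28 had an unadjusted limma p under 0.05. Of all genes tested 56.3% had a lower mean, 0.0269% passed after adjustment, and 7.23% had an unadjusted p under 0.05 (4.59% lower and 2.64% higher). The median difference, Card9-/- minus wt, was -0.77 over the 28 genes (range -1.55 to 0.35), against -0.088 over all genes. Unadjusted p lay between 0.0793 and 0.616, adjusted p between 0.737 and 0.949, and the 95% interval of the difference included 0 for all 28 genes. These counts use the kept probe with the highest mean, which stands for its gene. On it no gene of the set had arrays of one genotype wholly below those of the other. That was 0 of 28, against 5.22% of all genes, 3.69% lower and 1.53% higher. For 13 of the 28 all 4 Card9-/- levels lay inside the wt range. Another kept probe of Cd68 and of Ppt1 did separate the genotypes, each at an unadjusted limma p under 0.05. That of Cd68 read -2.99, -2.91, 0.23 and 0.41 in the libraries labelled wt replicates 1 to 4. On the matching Card9-/- arrays it read -5.98, -3.16, -4.58 and -3.14, and it was well above background on only 2 of these. That of Ppt1 ranged from -0.31 to 0.67 in wt and from -1.18 to -0.40 in Card9-/-. The differences were -2.90 for Cd68 and -0.76 for Ppt1. The other kept probes of both genes overlapped.

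The order of the arrays, not of the genotypes, was what these genes had in common. In 26 of 28 the highest level was on wt replicate 3. Over all genes the highest level lay on the libraries labelled wt replicates 1 to 4 for 10.6%, 9.52%, 27% and 11.1%, and on Card9-/- replicates 1 to 4 for 12.6%, 4.39%, 8.6% and 16.2%. In 23 of 28 (82.1%) wt replicates 3 and 4 both lay above the other 6 arrays, which held for 14.5% of all genes. The mean level of the 28 genes was 2.39, 2.46, 5.08 and 4.03 in the libraries labelled wt replicates 1 to 4, against 2.73, 2.77, 2.91 and 2.38 on the matching Card9-/- arrays. The wt mean was thus 3.49 ± 1.30 (SD, n = 4) and the Card9-/- mean 2.70 ± 0.22 (SD, n = 4), with both low wt libraries inside the Card9-/- range. A median gene of the set lay 2.48 higher in wt replicate 3 than in the library labelled wt replicate 1 (range -0.48 to 4.75), against 0.17 over all genes. Wt replicate 4 exceeded that library by a median of 1.64, and wt replicate 2 differed from it by a median of only 0.165 in size (0.0116 to 0.437). Over the 4 Card9-/- arrays the genes spanned a median of 0.869, less than the 1.33 of all genes. Over the 4 wt arrays they spanned 2.48, more than the 1.48 of all genes. In RNA of a mixed sample, fewer cells of a type and less RNA per cell cannot be told apart.

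**Figure D1:**
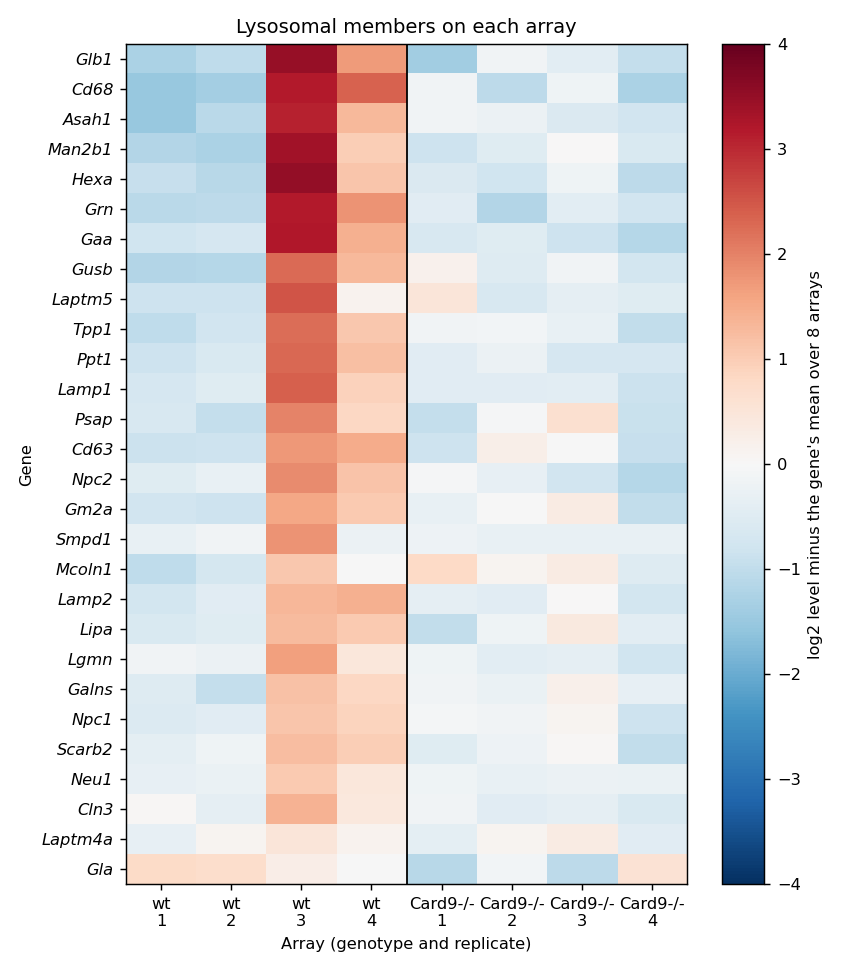
Level of each of the 28 lysosomal genes (rows) on each of the 8 arrays (columns), as log2 level minus the gene's own mean over the 8 arrays, in colour. Wt replicate 3 was the highest array for 26 of 28 genes, and both it and wt replicate 4 stood above the other 6 arrays for 23 of 28.

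The markers of macrophages were also highest on wt replicates 3 and 4, though the other arrays came in another order than for the lysosomal genes. Of 10 macrophage markers 9 were tested, and their mean level was -0.99, -0.62, 5.10 and 4.02 in the libraries labelled wt replicates 1 to 4, against 0.87, 0.91, 1.26 and 1.74 in the Card9-/- ones in the same order. Adgre1, a surface receptor that defines mouse macrophages, was at 0.67, 0.35, 7.72 and 5.92 in wt and at 1.62, 2.04, 2.42 and 1.94 in Card9-/-. Csf1r, the receptor of the macrophage growth factor, was at 1.32, 1.02, 8.58 and 5.34 and at 2.53, 2.24, 2.88 and 3.73. For Adgre1 and Csf1r wt replicates 3 and 4 were the highest arrays and the libraries labelled wt replicates 1 and 2 the lowest. Itgam, an integrin chain of myeloid cells named after its values were seen, differed, at 4.07, 3.46, 5.97 and 4.08 in wt and 1.97, 3.45, 2.52 and 4.36 in Card9-/-, with wt replicate 4 below Card9-/- replicate 4 and Card9-/- replicates 1 and 3 the lowest. In 7 of the 9 the highest array was wt replicate 3, and in 8 of the 9 wt replicates 3 and 4 both topped the other 6. Mertk, the tenth marker, was well above background on 2 wt and 0 Card9-/- arrays. Of 10 markers of resident peritoneal macrophages 8 were tested, with means of -1.87, -1.16, 6.06 and 4.08 in wt and -0.48, 0.49, 1.09 and 1.41 in Card9-/-, and of the others Gata6 exceeded background clearly on 3 arrays (2 wt, 1 Card9-/-) and Vsig4 on 2 (both wt). The spread over the 8 arrays was a median of 7.37 for the macrophage markers (4.00 to 8.97), 2.79 for the lysosomal genes (0.946 to 4.86) and 2.17 for all genes. The list mean of the labelled cell type was thus lowest in the libraries labelled wt replicates 1 and 2. How much of the lysosomal differences goes with these markers was not tested.

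**Figure D2:**
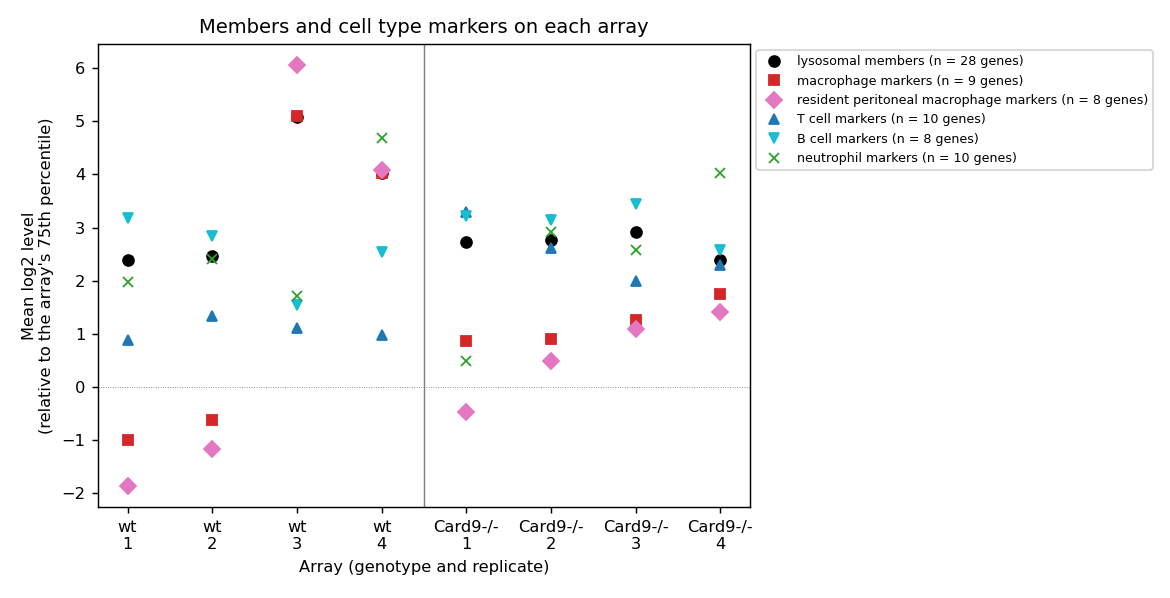
Mean log2 level of the 28 lysosomal genes and of 5 marker lists on each array, by genotype and replicate, with one symbol per list. The lysosomal mean was 5.08 and 4.03 on wt replicates 3 and 4 and between 2.38 and 2.91 on the other 6 arrays, and the macrophage mean was likewise highest on wt replicates 3 and 4.

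Of the 10 membrane proteins 9 had a lower mean in Card9-/-, with a median difference of -0.77, and 9 had their highest level on wt replicate 3. Lamp1 and Lamp2 are the heavily glycosylated proteins that line the lysosome. Lamp1 (probe on chromosome 8, 13175277 to 13175336, mm9) was at 5.03, 5.24, 8.11 and 6.62 in the libraries labelled wt replicates 1 to 4, against 5.25, 5.27, 5.29 and 4.85 in the Card9-/- ones in the same order. Wt replicates 3 and 4 stood above the rest, while 3 Card9-/- arrays lay between 5.25 and 5.29 and replicate 4 below both low wt libraries. The difference was -1.09 (SE 0.65, adjusted p = 0.786), and wt replicate 3 exceeded the library labelled wt replicate 1 by 8.45-fold. Lamp2 (chromosome X, 35772774 to 35772833) was at 3.08, 3.36, 5.14 and 5.23 in wt and at 3.45, 3.35, 3.82 and 3.08 in Card9-/-. It was the single gene of the set with its highest level on wt replicate 4, and the groups overlapped (-0.78, SE 0.55, adjusted p = 0.827).

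Cd68, or macrosialin, is a LAMP family protein used as a marker of macrophages. Its probe (chromosome 11, 69477775 to 69477834) read 1.99, 2.16, 6.69 and 5.86 in the libraries labelled wt replicates 1 to 4, against 3.35, 2.45, 3.33 and 2.23 in the Card9-/- ones in the same order. On this probe all 4 Card9-/- levels lay above both low wt libraries and below both high ones. Wt replicate 3 exceeded the library labelled wt replicate 1 by 26.1-fold, and the genotype difference was -1.33 (SE 1.05, adjusted p = 0.851). Scarb2, which carries glucocerebrosidase to the lysosome (chromosome 5, 92877571 to 92878904), was at 1.93, 2.16, 3.56 and 3.32 in wt and at 1.85, 2.12, 2.38 and 1.34 in Card9-/-. The same wt pair was on top, with a difference of -0.82 (SE 0.47, adjusted p = 0.775). Cln3, the membrane protein lost in juvenile Batten disease (chromosome 7, 133715736 to 133715795), was at 1.31, 0.90, 2.65 and 1.70 in wt and at 1.13, 0.81, 0.91 and 0.66 in Card9-/-. Wt replicate 3 was well above the other arrays, and the groups again overlapped (-0.77, SE 0.42, adjusted p = 0.763).

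Mcoln1, the calcium channel TRPML1, was the only gene of the 28 with a higher mean in Card9-/-. Its levels (chromosome 8, 3515111 to 3515170) were 0.96, 1.30, 3.06 and 1.96 in the libraries labelled wt replicates 1 to 4, against 2.80, 2.09, 2.31 and 1.47 in the Card9-/- ones in the same order. Wt replicate 3 was still the highest array, but 3 Card9-/- arrays came next, before wt replicate 4. The difference was 0.35 (SE 0.52, adjusted p = 0.925), with a 95% interval from -0.82 to 1.51, and it was -0.35 within the slide that all wt arrays shared with Card9-/- replicate 4. Laptm4a, a transmembrane protein of late endosomes and lysosomes (chromosome 12, 8943520 to 8943579), was at 2.58, 3.02, 3.41 and 3.06 in wt and at 2.53, 3.04, 3.25 and 2.47 in Card9-/-. It moved least of all over the 8 arrays (0.946 from lowest to highest), and the difference was -0.20 (SE 0.36, adjusted p = 0.942, 95% interval -0.995 to 0.60).

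**Figure D3:**
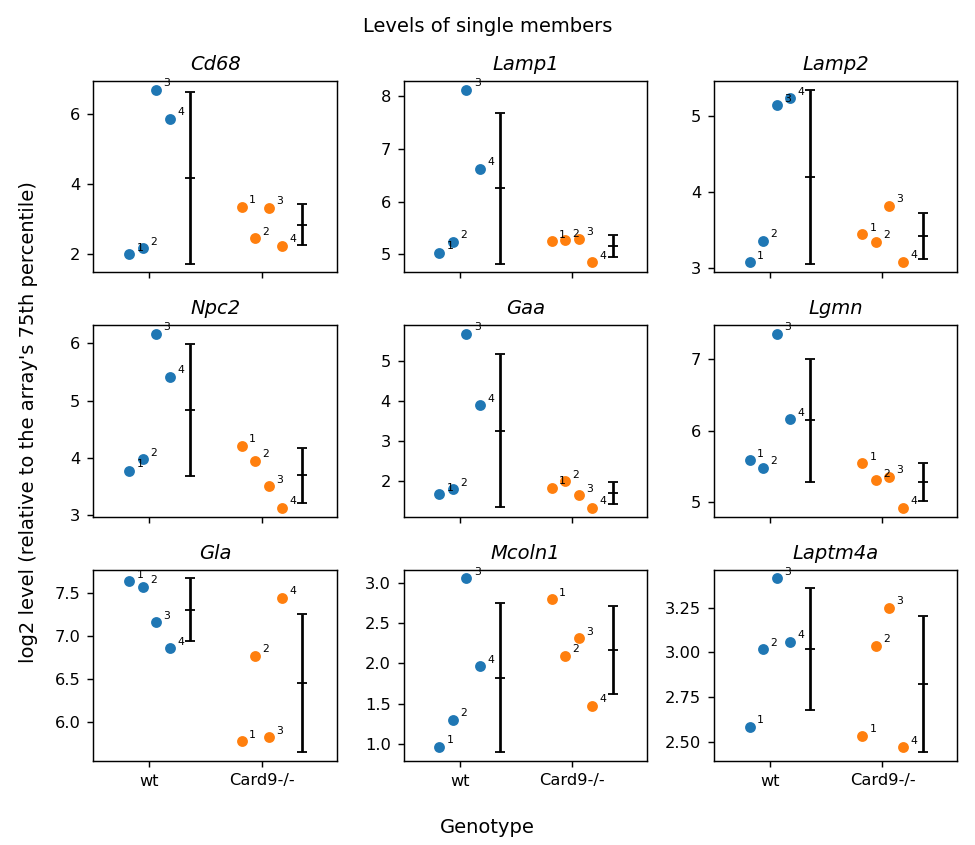
Log2 level of 9 lysosomal genes on each array, by genotype, with the replicate number beside each point and bars for the mean and SD of the 4 arrays. The wt points of Cd68, Lamp1, Lamp2, Npc2 and Gaa fall into a low pair (replicates 1 and 2) and a high pair (replicates 3 and 4), while Gla runs the other way and Laptm4a spans only 0.946.

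The remaining membrane proteins had wide wt and narrow Card9-/- spreads. Cd63, a tetraspanin of late endosomes, was at 4.34 ± 1.41 in wt and 3.56 ± 0.58 in Card9-/- (SD, n = 4 each), a difference of -0.77 over a range of 3.04 to 5.67. Npc1, which exports cholesterol from the lysosome, was at 1.98 ± 0.88 and 1.49 ± 0.41 (difference -0.49). Laptm5, the relative of Laptm4a found in blood cells, was at 4.99 ± 1.59 and 4.49 ± 0.49 (difference -0.50). In Cd63 and Npc1 both wt replicates 3 and 4 were above all other arrays, whereas in Laptm5 Card9-/- replicate 1 (5.21) lay above wt replicate 4 (4.88).

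The 8 enzymes that cut sugar chains or, for Galns, take sulfate off them had a lower mean in Card9-/- in 8 of 8. The median difference was -0.90 (-1.55 to -0.26), with a median step of 3.71 from the library labelled wt replicate 1 to wt replicate 3. Gaa, the acid alpha-glucosidase that degrades glycogen, had the largest difference of the 28 genes. Its levels (chromosome 11, 119146697 to 119146756) were 1.67, 1.80, 5.67 and 3.89 in the libraries labelled wt replicates 1 to 4, against 1.83, 1.99, 1.65 and 1.33 in the Card9-/- ones in the same order. Both low wt libraries lay among the Card9-/- arrays, and wt replicate 3 was 16.0-fold above the library labelled wt replicate 1. The difference of -1.55 (SE 0.82, adjusted p = 0.753) had a 95% interval from -3.40 to 0.29.

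Gla, the alpha-galactosidase whose loss causes Fabry disease, followed another order than the rest of the set. Its levels (chromosome X, 131122895 to 131122954) were 7.64, 7.57, 7.16 and 6.86 in the libraries labelled wt replicates 1 to 4, against 5.78, 6.77, 5.82 and 7.45 in the Card9-/- ones in the same order. The library labelled wt replicate 1 was the highest and wt replicate 3 was below it, and only Card9-/- replicate 4 overlapped the wt arrays. The difference was -0.85 (SE 0.46, adjusted p = 0.757). Card9-/- replicate 4 was also the only Card9-/- array on the slide that carried all 4 wt arrays, and within that slide the difference of Gla was 0.14.

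Neu1, the lysosomal sialidase (chromosome 17, 35072105 to 35072164), was at 4.68, 4.74, 6.05 and 5.45 in wt and at 4.82, 4.71, 4.77 and 4.73 in Card9-/-. The 4 Card9-/- levels spanned only 0.108, and the difference was -0.47 (SE 0.39, adjusted p = 0.854). Galns, a sulfatase that acts on keratan sulfate (chromosome 8, 125102522 to 125102581), was at -1.01, -1.45, 0.66 and 0.32 in wt and at -0.64, -0.75, -0.30 and -0.84 in Card9-/-. All 4 Card9-/- levels fell in the gap between the low and the high wt libraries, and the difference was -0.26 (SE 0.51, adjusted p = 0.949).

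Glb1, Hexa, Man2b1 and Gusb, which remove galactose, hexosamine, mannose and glucuronic acid, had wide wt and narrower Card9-/- spreads. Glb1 was at 3.48 ± 2.28 in wt and 2.03 ± 0.55 in Card9-/- (SD, n = 4 each), with a difference of -1.44, and its span of 4.86 over the 8 arrays was the largest of the set. Hexa was at 3.86 ± 2.15 and 2.57 ± 0.37 (difference -1.29). Man2b1 was at 4.54 ± 2.18 and 3.59 ± 0.36 (difference -0.96), and Gusb at 2.02 ± 1.74 and 1.41 ± 0.41 (difference -0.62). Wt replicate 3 exceeded the library labelled wt replicate 1 by 26.9-fold for Glb1, 21.7-fold for Hexa, 23.1-fold for Man2b1 and 10.8-fold for Gusb. These values are from the probe that stands for each gene, on which each was highest on wt replicate 3. The other kept Gusb probe read 1.62, 1.77, 3.26 and 1.49 in wt, so that wt replicate 4 was not high. A dimmer kept Glb1 probe was highest in the library labelled wt replicate 1 (-1.71, against -2.09 on wt replicate 3), and the other kept Glb1 probes on wt replicate 3.

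All 4 lipid hydrolases and both peptidases had lower means in Card9-/-, with median differences of -0.73 and -0.82. Ppt1, which removes fatty acids from proteins (chromosome 4, 122536156 to 122536215), was at 1.26, 1.48, 4.38 and 3.28 in the libraries labelled wt replicates 1 to 4, against 1.64, 1.84, 1.41 and 1.40 in the Card9-/- ones in the same order. The wt arrays split into a low and a high pair, with Card9-/- beside the low one (-1.03, SE 0.67, adjusted p = 0.808). Lgmn, the asparaginyl endopeptidase legumain (chromosome 12, 103632415 to 103632474), was at 5.58, 5.48, 7.36 and 6.16 in wt and at 5.54, 5.30, 5.35 and 4.91 in Card9-/-. Only Card9-/- replicate 1 lay above the lowest wt library, and the difference was -0.87 (SE 0.46, adjusted p = 0.753).

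Asah1, the acid ceramidase, was at 1.74 ± 2.15 in wt and 0.87 ± 0.29 in Card9-/- (SD, n = 4 each), a difference of -0.87, with wt replicate 3 at 24.3-fold the library labelled wt replicate 1. Lipa, the acid lipase that frees cholesterol from its esters, was at 1.21 ± 0.98 and 0.61 ± 0.57 (difference -0.60). Smpd1, the acid sphingomyelinase, was at 1.72 ± 1.02 and 1.17 ± 0.044 (difference -0.55). On this probe, unlike the other lipid enzymes, Smpd1 stood high on wt replicate 3 alone (3.25). There wt replicate 4 was at 1.21, inside the Card9-/- range of 1.13 to 1.23. A second kept Smpd1 probe was high on both wt replicates 3 and 4 (0.91 and 0.31), with -1.78 to -0.95 elsewhere. Tpp1, a tripeptidyl peptidase lost in a late infantile form of Batten disease, was at 3.65 ± 1.55 and 2.88 ± 0.41 (difference -0.77), with wt replicate 3 at 9.65-fold the library labelled wt replicate 1.

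The 4 soluble cofactors and carriers all had lower means in Card9-/- (median difference -0.87) and all had wt replicates 3 and 4 on top. Npc2, which hands cholesterol to Npc1, had the smallest unadjusted p of the 28 genes. Its levels (chromosome 12, 86097947 to 86098006) were 3.78, 3.97, 6.16 and 5.41 in wt and 4.21, 3.95, 3.50 and 3.13 in Card9-/-. Card9-/- replicates 3 and 4 lay below all wt arrays, replicate 2 between the low wt libraries and replicate 1 just above them, with a difference of -1.13 (SE 0.58, limma adjusted p = 0.737). Grn, the precursor of the granulins (chromosome 11, 102298060 to 102298119), was at 4.84, 4.87, 9.10 and 7.73 in wt and at 5.48, 4.76, 5.50 and 5.15 in Card9-/-. Wt replicate 3 was 19.1-fold above the library labelled wt replicate 1, and the difference was -1.41 (SE 0.91, adjusted p = 0.805). Psap, which is cut into the saposins, was at 4.19 ± 1.37 in wt and 3.57 ± 0.77 in Card9-/- (SD, n = 4 each, difference -0.61). Gm2a, the ganglioside activator, was at 0.55 ± 1.22 and 0.057 ± 0.56 (difference -0.50).

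**Figure D4:**
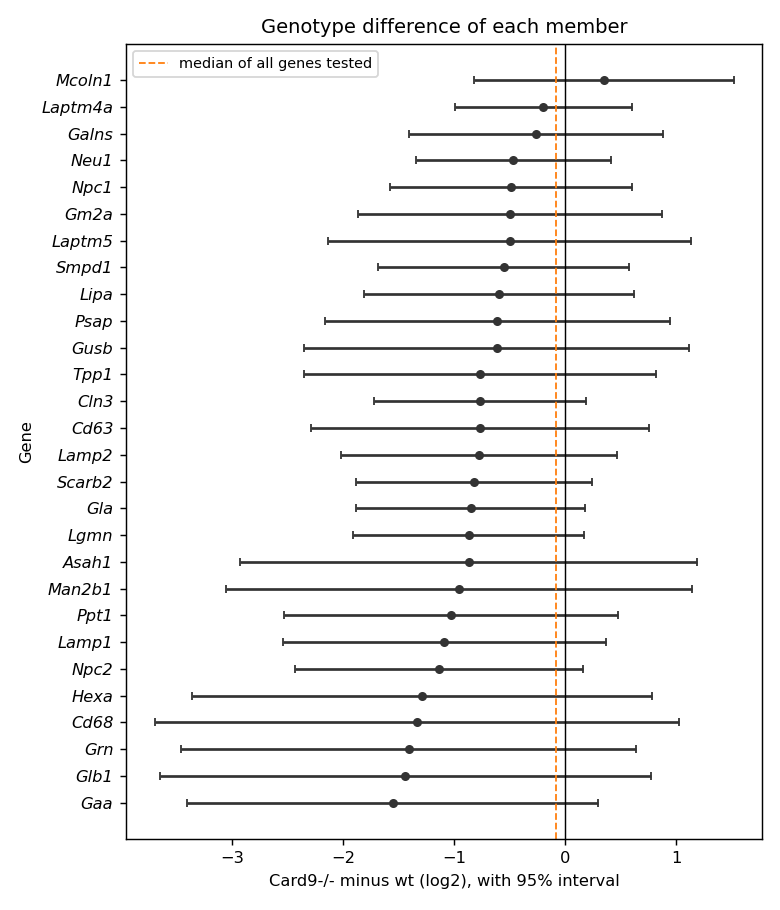
Difference in log2 level, Card9-/- minus wt, of each of the 28 lysosomal genes, with its 95% interval from limma as a bar and the median of all genes tested (-0.088) as a dashed line. The points run from -1.55 for Gaa to 0.35 for Mcoln1, and all 28 intervals include 0.

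Since both low wt libraries weigh on each value, the counts were also taken without them, an alternative chosen after the data were seen. With both averaged into 1 sample instead, 0 of 28 genes passed the test, 3 of 28 (Gaa, Npc2 and Grn) had an unadjusted limma p under 0.05, against 6.36% of all genes, and the median difference was -1.09. Without the libraries labelled wt replicates 1 and 2, which leaves 2 wt arrays against 4, the mean was lower in Card9-/- for 28 of 28 genes and 4 passed the test, against 2.31% of all genes (1.57% lower). These were Cd68 (-3.44, adjusted p = 0.0288), Grn (-3.19, adjusted p = 0.0329), Gaa (-3.08, adjusted p = 0.0398) and Glb1 (-3.31, adjusted p = 0.0403) by limma. The libraries left out were the low wt ones for this set, which by itself favours lower Card9-/- levels. These passes are therefore no test of the genotype. In that setting the groups did not overlap, with Card9-/- lower, for 23 of 28, against 17.7% of all genes in that direction. Without wt replicates 3 and 4 instead, the mean was lower for 7 of 28 and 0 passed, and the median difference was 0.32. Of the 28, 8 did not overlap in either direction, against 30.5% of all genes. On the slide shared by all wt arrays and 1 Card9-/- array, 10 of 28 did not overlap, against 49.9% of all genes, and 0 of 28 passed, against 0% of all genes. Wt replicates 3 and 4 were the high wt arrays for this set, so leaving them out by itself favours higher Card9-/- levels relative to wt. That removal is therefore no test of the genotype either. The lower means in the full set went with the high levels on wt replicates 3 and 4, and the libraries were not removed from any other value.

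A gene's probes did not always move together. Of the 51 probes kept, 44 had a lower mean in Card9-/-, and on 36 both wt replicates 3 and 4 lay above the other 6 arrays. Among 14 genes with 2 or more kept probes, the sign of the difference disagreed in 6, namely Cln3, Galns, Grn, Lamp2, Laptm5 and Npc1. A second Grn probe gave 0.55, -1.23, 2.07 and 3.54 in the libraries labelled wt replicates 1 to 4, against 4.32, -0.70, -0.52 and 6.10 in the Card9-/- ones in the same order, so that its highest arrays were Card9-/- replicates 4 and 1. The third Grn probe followed the first, at 0.32, -0.030, 2.99 and 2.08 in wt and -0.0075, 0.66, 1.06 and -0.38 in Card9-/-. For Lamp2, a second probe kept the order of the first, with 3.46 and 3.79 on wt replicates 3 and 4 and at most 2.67 elsewhere. The third Lamp2 probe, on another transcript, was lowest on those arrays (-0.23 and 0.27) and between 0.40 and 1.49 elsewhere. The second Laptm5 probe was likewise lowest on wt replicates 3 and 4 (-3.89 and -3.90) and highest on Card9-/- replicates 1 and 4 (-1.89 and -2.04). Why the probes differ was not tested.

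**Figure D5:**
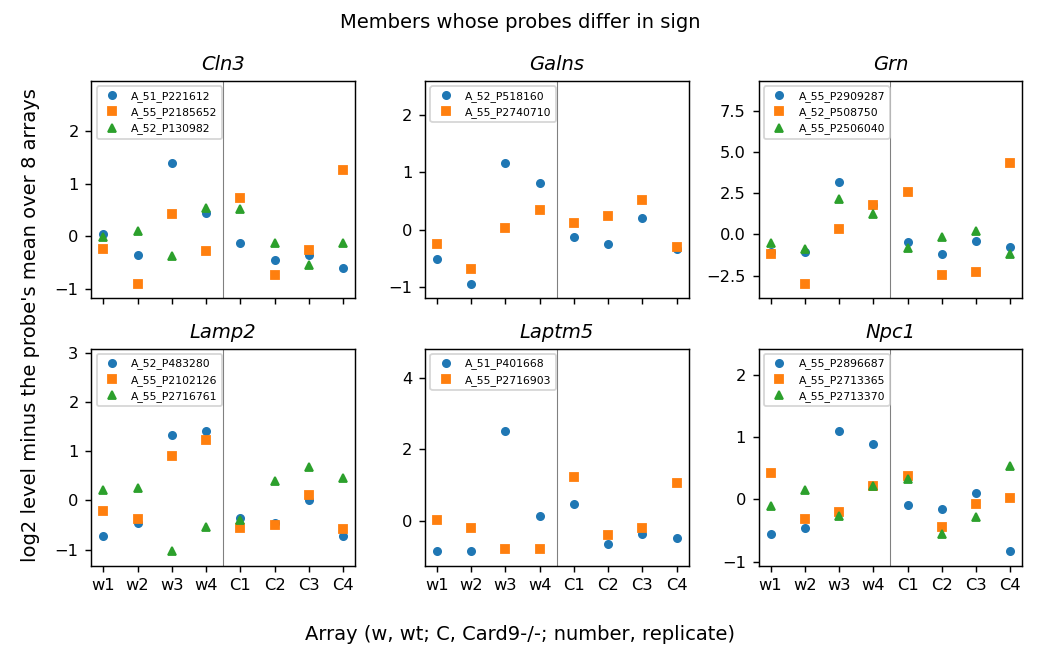
Log2 level minus the probe's own mean over 8 arrays for every kept probe of the 6 genes whose probes disagreed in sign, by array (w, wt; C, Card9-/-; number, replicate), 1 symbol per probe. In each gene the first probe listed, which stands for the gene in the text, is highest on wt replicate 3 or 4, and at least 1 other probe is not.

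The other genes of the lysosome shared the pattern in part. Among 26 of 28 other hydrolases and cofactors tested, 23 had a lower and 3 a higher mean in Card9-/- (median difference -0.48), and 17 had wt replicates 3 and 4 on top. At an unadjusted p under 0.05 stood 1 of them, the acid nuclease Dnase2a (-2.10, SE 0.71, adjusted p = 0.572), followed by the phospholipase Pla2g15 (-1.96) and Plbd2 (-1.16). Dnase2a did not share the order of the arrays, being at 3.68, 3.84, 3.52 and 3.29 in the libraries labelled wt replicates 1 to 4, against 0.056, 2.52, 0.21 and 3.17 in the Card9-/- ones in the same order. All 11 cathepsins, the main lysosomal proteases, were tested, and 8 were lower and 3 higher (median -0.71), with 9 highest on wt replicate 3. Ctsz (-0.77), Ctss (-0.74) and Ctsd (-1.27) had the smallest p, and 0 were under 0.05 unadjusted.

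The proton pump that acidifies the lysosome gave the same direction in every subunit tested. Of its 18 subunits 17 were tested, and the mean was lower in Card9-/- for 17 of 17 (median -0.50), with Atp6ap2 (-1.01, SE 0.39, adjusted p = 0.614) alone at an unadjusted p under 0.05, before Atp6v1h (-0.72) and Tcirg1 (-1.09). Of 14 genes that deliver enzymes to lysosomes 13 were lower (median -0.47), and 9 had wt replicates 3 and 4 on top. Their smallest p were those of the sorting adaptor Gga1 (-1.02), the retromer subunit Vps35 (-0.72) and the adaptor Gga3 (-0.64), with 0 under 0.05. The 24 of 25 other lysosomal membrane proteins tested split into 13 lower and 11 higher (median -0.13), and only 5 had wt replicates 3 and 4 on top. At an unadjusted p under 0.05 were the peptide transporter Abcb9, higher at 1.60 (SE 0.38, adjusted p = 0.514), and the amino acid transporter Slc38a9, lower at -1.41 (SE 0.59, adjusted p = 0.653). Next came the chloride exchanger Clcn7 (-1.56). The transcription factors of lysosomal genes were 3 lower and 2 higher of 5 tested, with Tfe3 at -0.47, Tfeb at 0.61 and Mitf at -0.66, and 0 under 0.05. In none of these lists did a gene pass the adjusted test, against 0.0269% of all genes.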

How the data were processed

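The deposited scanner files, 1 for each of the 8 arrays, give spot intensity after background subtraction in Agilent Feature Extraction 10.7.1.1 (protocol GE1_107_Sep09, build mm9, per the file headers), 1 colour per array (Cy3, 0.2 µg RNA). The authors' deposited series matrix holds log2 values whose columns have a median near 4.48, with scale and centring steps not stated, and served only as an alternative, over its 49670 rows that matched the scanner values under their own probe. Its columns matched a scanner file of their own genotype in 8 of 8 and of their own replicate in 2 of 8.

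The log2 signal minus the array's 75th percentile of non-control spots was analysed. Flagged outlier spots (63 to 213 per array) were left out and repeated spots averaged. A probe was kept (28169 were) if 3 or more of the 4 arrays of either genotype read it well above background, and the probe with the highest mean stood for its gene. Probes were named by accession (32954), symbol (10206) or synonym (520) in RefSeq's GRCm38.p6 table, the 58 probes of the set by the files' gene name, and 12867 kept the files' name. The genotype test used limma (version 3.58.1, under R 4.3.3, with the data.table package, version 1.17.8), two-sided, with Benjamini-Hochberg adjustment over 18605 genes at 0.05; the code was tested on simulated data. Levels on every array are given for Cd68, Lamp1, Lamp2, the 8 other genes of smallest p and the 4 of smallest difference. Named beside them, with differences or means, are up to 3 genes of smallest p of each other lysosomal list and the first 2 tested of each marker list, except that 1 marker is not reported here. The 28 genes and all lists were chosen with earlier results of these data known. Replicate numbers were not used as pairs, since same-numbered arrays deviated together in 1 of 4 pairs only (correlations -0.132, 0.254, -0.12 and -0.281). All 4 wt arrays and Card9-/- replicate 4 were on slide 1, Card9-/- replicates 1 and 3 on slide 2 and Card9-/- replicate 2 on slide 3. The alternatives were another background correction, scaling, filter, probe rule, slide block, array weights and left-out arrays.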

Additional observations from a re-analysis of the deposited data

Results flagged for a closer look

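In 2 of 56 groups of 4 arrays, 1 array lay far from its genotype's other 3, measured as its gap to the nearest of them divided by the whole range. Chance gives about 1 in 20. Lamp1 was at 4.85 on Card9-/- replicate 4, while the other Card9-/- arrays were at 5.25 to 5.29, and the gap was 0.891 of the range. Smpd1 was at 3.25 on wt replicate 3, with the other wt arrays at 1.13 to 1.30, and the gap was 0.923 of the range. On its second kept probe wt replicate 4 (0.31) was high beside wt replicate 3 (0.91). Wt replicate 3 was the highest array for 26 of the 28 genes.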

How the results depend on the processing

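The median difference of the 28 genes (-0.77) stayed negative when 1 array was left out, at -1.10 to -0.30, the weakest without wt replicate 3. It turned to 0.30 with array weights, which by construction counted wt replicate 3 at 0.187 and wt replicate 2 at 7.69, and to 0.32 without wt replicates 3 and 4 (added after the data were seen). Of all genes, 5 passed in the main setting, 0 with probes above background on all arrays, 0 with a slide block and 0 within slide 1, both of which rest on Card9-/- replicate 4, 3 with the replicate number as a block, 587 with array weights, 430 without the libraries labelled wt replicates 1 and 2, and 5 to 6 with 1 array left out. The replicate block, whose numbers do not pair the arrays, left 0 of the 28 genes called. Of the 28, 4 passed without the libraries labelled wt replicates 1 and 2, and 0 did under every other alternative run. Genes of the 28 whose genotypes did not overlap were 0 in the main setting, 1 with normexp, 1 with median scaling, 10 within slide 1 (49.9% of all genes), 23 without the libraries labelled wt replicates 1 and 2, 8 without wt replicates 3 and 4 (30.5% of all genes), and 0 to 2 with 1 array left out. The Card9 difference was -5.81 (limma adjusted p = 0.0206) without the libraries labelled wt replicates 1 and 2, and it could not be computed from the series matrix or with probes above background on all arrays. The number of the 28 with a lower mean was 25 to 27 under every other alternative run, except 22 without wt replicate 3, 9 with array weights and 28 and 7 in the added pair. Single genes turned sign in 31 of 588 values, not counting the added pair, where 20 of 28 turned without wt replicates 3 and 4 (0.021 to 0.88) and 1, Mcoln1, without the libraries labelled wt replicates 1 and 2 (-0.34). The cause was not tested. With array weights these were Lamp2 (0.11), Hexa (0.30), Glb1 (0.49), Gusb (0.69), Galns (0.62), Psap (0.74), Npc1 (0.30), Lipa (0.31), Cd63 (0.64), Cd68 (0.51), Laptm5 (0.35), Laptm4a (0.080), Grn (0.077), Tpp1 (0.49), Ppt1 (0.13), Asah1 (0.71), Man2b1 (0.69) and Gm2a (0.68). With 1 array left out they were Gusb (-1.11 to 0.029), Galns (-0.62 to 0.080), Laptm5 (-0.86 to 0.26), Asah1 (-1.52 to 0.010) and Man2b1 (-1.54 to 0.0024), each positive without wt replicate 3 alone. Laptm4a turned with quantile normalization (0.018) and in the series matrix (0.013), Galns (0.0094) and Laptm5 (0.18) with the mean of probes, and Gla (0.14) and Mcoln1 (-0.35) with a slide block as within slide 1. The median of all genes was -0.088, and 0.030 with normexp, -0.26 with median scaling, -0.26 with the slide as a block and 0.32 without the filter.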

Other observations

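Markers of other cells differed between the arrays as well. All 10 T cell markers tested had a higher mean in Card9-/- (median difference 1.52), 8 of them at an unadjusted p under 0.05 and 0 after adjustment, against 2.64% of all genes higher at that p. Cd3d was at 1.93 ± 0.63 in wt and 3.63 ± 0.60 in Card9-/-, and Cd3e at 1.23 ± 0.56 and 2.58 ± 0.49 (SD, n = 4 each). All 9 natural killer cell markers tested were also higher (median 2.40, 8 under 0.05 and 0 after adjustment), with Klrb1c at -3.08 ± 0.27 and 0.12 ± 1.24 and Klrd1 at -0.51 ± 0.76 and 1.90 ± 0.97. Neither list was highest on wt replicates 3 and 4, unlike the lysosomal genes. The 8 B cell markers were 7 higher and 1 lower, with Cd79a at 1.66 ± 0.59 and 2.58 ± 0.84, and their mean was lowest on wt replicate 3 (1.53, against 2.53 to 3.45 elsewhere).

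The 10 neutrophil markers were 5 lower and 5 higher, with means of 1.72 to 4.68 on wt and 0.49 to 4.03 on Card9-/- arrays, Ly6g at 0.32 ± 1.13 and -0.82 ± 0.88 and Csf3r at 6.21 ± 0.38 and 6.27 ± 0.09 (SD, n = 4 each). The 7 dendritic cell markers were 3 lower and 4 higher, with Flt3 at -0.69 ± 0.10 and -0.29 ± 0.53 and Zbtb46 at -1.97 ± 0.87 and -0.28 ± 2.52. The 6 red cell markers were all higher in Card9-/- (median 2.81), with per-array means of -0.64 to 3.77 in wt and 2.96 to 7.51 in Card9-/-, Hba-a1 at 9.06 ± 1.29 and 9.62 ± 0.96 and Hbb-b1 at 6.16 ± 2.37 and 7.91 ± 1.80. The 8 resident peritoneal macrophage markers were all lower, with Timd4 at -0.29 ± 4.66 and -0.90 ± 0.72 and Icam2 at 4.52 ± 2.64 and 3.53 ± 0.55. Of 6 mast cell and eosinophil markers 4 were lower, with Cpa3 at 4.34 ± 1.73 and 3.85 ± 2.32 and Cma1 at 5.39 ± 1.66 and 5.13 ± 2.03. Of 4 mesothelial markers 1 was lower, with Msln at -2.06 ± 2.10 and -1.76 ± 0.45 and Krt19 at -2.63 ± 1.60 and -2.89 ± 0.66. The 4 fibroblast markers were 1 lower and 3 higher, each highest on wt replicate 3, with Col1a1 at -1.65 ± 1.81 and -0.86 ± 1.21 and Col1a2 at 0.10 ± 1.50 and 0.64 ± 1.04. Of 3 fat cell markers 2 were lower, with Lep at -2.11 ± 0.56 and -2.03 ± 1.53 and Ucp1 at -0.19 ± 1.96 in wt but well above background on 0 of 4 Card9-/- arrays (measured mean -5.57 ± 0.47, unadjusted limma p under 0.05). None of these lists held a gene that passed the adjusted test.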
